A study of Homo sapiens with 15 samples.

Results

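The genes described here are 10 regulators of entry into mitosis, which were taken by name from a table of mRNA levels that lists 60558 genes. They are CDK1 and its partner cyclins CCNA2, CCNB1 and CCNB2, the phosphatases CDC25B and CDC25C, and the kinases PLK1, AURKA, AURKB and NEK2. All 10 were found, and all 10 averaged 5 TPM or more over the 15 libraries, the level from which 10196 genes were tested. TPM, transcripts of a gene corrected for their length and scaled to a fixed total per library, is the unit of every level given here.

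The cells were RPE1-hTERT, a non-transformed line of human retinal pigment epithelium immortalized with telomerase, in which a pINDUCER20-CCNE1 retrovirus carries a cyclin E1 cDNA under a promoter switched on by doxycycline (dox). Every group, control included, carried this transgene, and according to the methods of the study the line was grown up from a single cell, so all libraries descend from 1 clone. There were 3 libraries in each of 5 groups. Control cells had 0 ng/ml dox. Acute cells had 20 ng/ml dox for 2 days, cells in proliferative crisis had 20 ng/ml for 15, 18 and 18 days, and adapted cells had 20 ng/ml for 39, 41 and 51 days. Recovery cells, labelled as re-adapted by the submitters, had grown in dox for 31, 42 and 46 days and then without it for 18, 46 and 17 days. In 1 recovery culture the time in dox was thus shorter than in any adapted culture. The 3 adaptations were started separately, and libraries of all samples were prepared together. No group had dox without the transgene, and no never-induced cells from later days were included. Effects of dox itself and of time in culture therefore cannot be told apart from those of cyclin E1.

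Entry into mitosis depends on the kinase CDK1 bound to a B-type cyclin. The complex is built up through G2 phase and held inactive by the kinases WEE1 and PKMYT1 until CDC25 phosphatases remove the inhibiting phosphates. PLK1, which is itself switched on by Aurora A (AURKA), promotes this step, while NEK2 acts in the separation of centrosomes and Aurora B (AURKB) acts at chromosomes and in cytokinesis. The mRNAs of these genes are low in G1 and high in G2 and mitosis, because their promoters are repressed by the DREAM complex early in the cycle and activated later by B-MYB and FOXM1. In RNA from a whole culture, fewer cells in G2 and mitosis cannot be told apart from less mRNA per cell.

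CCNE1 was examined first as a check of the labels. Its mean was 151 ± 14 TPM in acute cells, 38.9 ± 6.0 TPM in crisis, 42.8 ± 0.418 TPM in adapted and 5.65 ± 0.249 TPM in recovery cells, against 7.08 ± 0.804 TPM in control cells (SD, n = 3 each). The table does not separate transcripts of the transgene from those of the resident gene. The 15 libraries each summed to between 999659 and 999726 TPM and had between 26841 and 28725 genes above 0, and no 2 libraries correlated below r = 0.9892 on the log2 scale. The epithelial keratins KRT8 (409 to 568 TPM) and KRT18 (293 to 460 TPM) were high in every library. The markers of epithelium and pigment epithelium together summed to 815 to 894 TPM in adapted libraries, against 907 to 1016 TPM in control libraries. KRT7, KRT8 and KRT18 were each lower in all adapted than in all control libraries, as were 1066 of the 10196 genes tested. The transcription factors MITF and OTX2, of the same marker set, were at 13.2 to 26.1 TPM. OTX2 went the other way from the keratins, with all adapted libraries above all control libraries, against 13.5% of the genes tested. For MITF these groups overlapped. RPE65, the isomerase that defines mature pigment epithelium, was listed at 0 in all 15, and BEST1, RLBP1, TYR and PMEL did not exceed 1.51 TPM. Markers of blood (PTPRC), endothelial (PECAM1, CDH5), other epithelial (EPCAM) and neural crest cells (SOX10) did not exceed 0.855 TPM. The neuronal tubulin TUBB3 was at 100.2 to 183 TPM, and the sum of these 6 markers was 111 to 144 TPM in adapted and 101 to 136 TPM in recovery libraries, against 145 to 183 TPM in control libraries. The part of either marker set in the results below was not tested.

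The mRNAs of the mitotic entry genes were together highest on average in acute and adapted cells, but no single gene passed the test that was set (limma, adjusted p under 0.01) in any of 8 comparisons. Their summed level was 1039, 969 and 1003 TPM in the 3 acute libraries and 989, 1031 and 849 TPM in the adapted libraries. In crisis it was 829, 876 and 858 TPM and in recovery 855, 825 and 627 TPM, against 823, 819 and 798 TPM in control. All acute, crisis and adapted libraries were thus above all control libraries in this sum, with a small margin in crisis. The recovery library of replicate 3, from a culture kept in dox for 46 days and out of it for 17 days, stood apart with the lowest sum of the 15 libraries. The other 2 recovery libraries were each above all control libraries in this sum, so the recovery mean was the lowest of the 5 groups only with replicate 3, and the results on recovery are therefore also given without it.

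**Figure D1:**
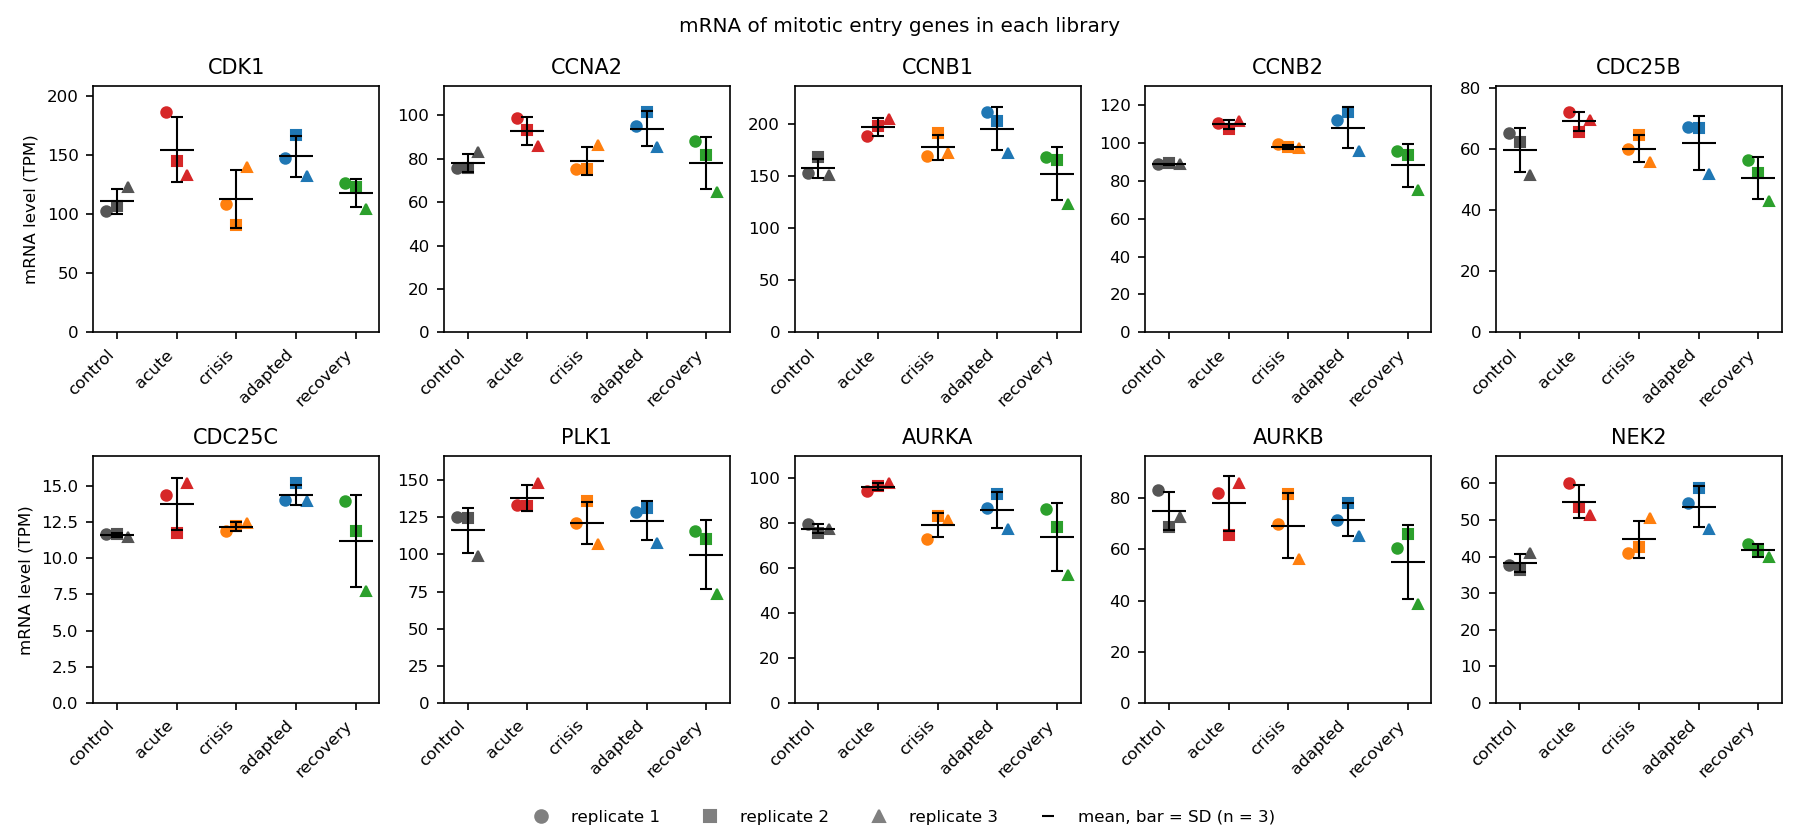
mRNA level in TPM of each gene in each library, by group in the order of the experiment (linear axes starting at 0). Symbols mark replicates, horizontal marks the group mean and bars the SD of 3 libraries. CCNB1 was the most abundant of the 10 in every library, and for 8 of 10 genes the recovery library of replicate 3 was the lowest of the 15.

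Levels differed widely between the genes. By mean TPM over all libraries, a measure that is corrected for transcript length, the order was CCNB1 (176), CDK1 (129), PLK1 (120), CCNB2 (98.4), CCNA2 (84.3), AURKA (82.5), AURKB (69.8), CDC25B (60.4), NEK2 (46.6) and CDC25C (12.6). The lowest CCNB1 value (123 TPM) lay below the highest CDK1 value (186 TPM), and from CCNB1 down to NEK2 each gene's range over libraries overlapped that of the next in this order. NEK2 and CDC25C were the exception, since the highest CDC25C value (15.2 TPM) lay below the lowest NEK2 value (36.2 TPM). Processed copies of these genes elsewhere in the genome could in principle share reads with them. The table lists 5 such copies, of AURKA, CCNB2 and NEK2, and none exceeded 0.908 TPM.

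CDK1 is the catalytic subunit of the mitotic kinase (chr10:60778331-60794852, plus strand, hg38). It was at 103, 107 and 123 TPM in control, 186, 145 and 133 TPM in acute, 108, 91.1 and 139.5 TPM in crisis, 147, 167 and 132 TPM in adapted and 126, 123 and 104 TPM in recovery libraries. All acute and all adapted libraries were above all control libraries, whereas crisis libraries spanned the control range and beyond it on both sides. The acute mean was 1.40 times and the adapted mean 1.34 times that of control. On the log2(TPM + 1) scale used for all tests, the difference was 0.47 ± 0.15 in acute cells (SE, adjusted p = 0.36), while adapted cells differed by 0.42 ± 0.15 (adjusted p = 0.146). The lowest of the 15 values was in a crisis library.

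CCNB1 encodes cyclin B1, the main activating partner of CDK1 in mitosis (chr5:69167135-69178245, plus strand). Its mRNA was at 154, 168 and 151 TPM in control, 188, 198 and 205 TPM in acute, 169.8, 192 and 172 TPM in crisis, 211, 204 and 173 TPM in adapted and 168, 166 and 123 TPM in recovery libraries. Every library of the 3 groups in dox was above every control library. No share of all genes is given for this joint pattern, here or for CCNB2, and the 3 groups were set against the same control libraries. Relative to control, acute cells differed by 0.32 ± 0.11 (adjusted p = 0.41), cells in crisis by 0.17 ± 0.11 (adjusted p = 0.552) and adapted cells by 0.31 ± 0.11 (adjusted p = 0.152). CCNB2, which encodes the related cyclin B2 (chr15:59105126-59125045, plus strand), had the tightest control values of the 10 genes. It was at 88.6, 89.0 and 88.5 TPM in control, 110.3, 107 and 112 TPM in acute, 99.0, 97.6 and 97.0 TPM in crisis, 112, 116 and 95.7 TPM in adapted and 95.6, 93.4 and 75.2 TPM in recovery libraries. As for CCNB1, every library in dox was above every control library, and acute libraries were all above those in crisis. Relative to control, its difference was 0.30 ± 0.09 for acute cells (adjusted p = 0.329), 0.14 ± 0.09 for cells in crisis (adjusted p = 0.559) and 0.28 ± 0.09 for adapted cells (adjusted p = 0.131). The ratio of CCNB1 to CCNB2 stayed between 1.64 and 1.97 in all 15 libraries, with its lowest value in recovery replicate 3.

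CCNA2, encoding cyclin A2, which partners CDK2 in S phase and CDK1 in G2 (chr4:121816444-121823883, minus strand), showed smaller differences. Its values were 75.5, 75.5 and 83.0 TPM in control, 98.8, 93.3 and 85.8 TPM in acute, 75.2, 75.0 and 86.2 TPM in crisis, 94.97, 101.3 and 85.1 TPM in adapted and 88.1, 81.5 and 64.8 TPM in recovery libraries. Acute and adapted libraries lay above control, and 2 of 3 crisis libraries lay just below the lowest control value. The mean was 1.19 times that of control in acute and 1.20 times in adapted cells, with log2 differences of 0.24 ± 0.11 (adjusted p = 0.542) and 0.26 ± 0.11 (adjusted p = 0.195).

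The CDC25 phosphatases activate CDK1, with CDC25B acting early at the centrosome and CDC25C later. CDC25B (chr20:3786772-3806121, plus strand) was at 65.3, 62.4 and 51.5 TPM in control, 72.1, 65.8 and 69.7 TPM in acute, 60.2, 64.7 and 55.8 TPM in crisis, 67.3, 66.9 and 52.0 TPM in adapted and 56.6, 52.3 and 43.0 TPM in recovery libraries. Only acute libraries were separate from control for this gene, and the interval of the adapted difference reached from -0.20 to 0.31. CDC25C (chr5:138285269-138338355, minus strand) was at 11.7, 11.6 and 11.4 TPM in control, 14.4, 11.7 and 15.2 TPM in acute, 11.9, 12.3 and 12.4 TPM in crisis, 13.99, 15.2 and 13.96 TPM in adapted and 13.9, 11.9 and 7.73 TPM in recovery libraries. Acute replicate 2 exceeded the highest control library by less than the rounding of these values. The CDC25C difference from control was 0.29 ± 0.15 in adapted cells (adjusted p = 0.281) and 0.22 ± 0.15 in acute cells (adjusted p = 0.644). CDC25B mRNA was between 3.72 and 5.6 times as abundant as CDC25C in every library.

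PLK1, the polo-like kinase that drives mitotic entry, spindle formation and exit (chr16:23677656-23690367, plus strand), was at 125, 125 and 98.9 TPM in control, 133, 132.4 and 148 TPM in acute, 121, 136 and 107 TPM in crisis, 129, 131.5 and 108 TPM in adapted and 116, 110.3 and 73.5 TPM in recovery libraries. The acute libraries were above those of control and of adapted cells, while the crisis and adapted libraries overlapped control. The acute difference from control was 0.25 ± 0.15 (adjusted p = 0.597), and the adapted difference was 0.08 with an interval from -0.23 to 0.39. AURKA (chr20:56369389-56392337, minus strand) was at 79.8, 75.5 and 77.4 TPM in control, 94.4, 96.4 and 97.9 TPM in acute, 73.0, 83.3 and 81.4 TPM in crisis, 86.7, 93.1 and 77.2 TPM in adapted and 86.2, 78.2 and 56.8 TPM in recovery libraries. For this kinase the 3 acute libraries were above all 12 others, a pattern for which no share of all genes is given. The difference from control was 0.31 ± 0.12 in acute cells (adjusted p = 0.483).

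AURKB, the kinase of the chromosomal passenger complex (chr17:8204733-8210600, minus strand), differed from the other 9 genes in having acute libraries that overlapped control. It was at 83.2, 68.8 and 72.8 TPM in control, 82.1, 65.8 and 86.0 TPM in acute, 69.9, 81.6 and 56.3 TPM in crisis, 71.6, 78.2 and 65.1 TPM in adapted and 60.4, 66.0 and 38.8 TPM in recovery libraries. All recovery libraries were below all control libraries. The ratio of AURKA to AURKB lay between 1.14 and 1.46 for acute, 1.18 and 1.21 for adapted and 1.19 and 1.46 for recovery libraries, against 0.959 to 1.10 for control and 1.02 to 1.45 for crisis. In TPM as deposited, acute, adapted and recovery libraries were thus each above control in this ratio. The 2 genes differ in GC content. After the correction for it described below, the adapted differences from control were 0.08 for AURKA and 0.03 for AURKB, against 0.14 and -0.06 before it. The corrected differences of AURKA and AURKB were 0.23 and 0.06 in acute cells and -0.20 and -0.39 in recovery. NEK2 (chr1:211658657-211675630, minus strand) had the largest fitted difference from control of the 10 genes in acute, crisis and adapted cells. It was at 37.7, 36.2 and 40.9 TPM in control, 60.1, 53.5 and 51.4 TPM in acute, 41.0, 42.5 and 50.4 TPM in crisis, 54.6, 58.8 and 47.6 TPM in adapted and 43.4, 41.8 and 39.9 TPM in recovery libraries. Every library in dox was above every control library, although in crisis replicate 1 the margin was small. As for CCNB1, no share of all genes is given for this joint pattern. The mean was 1.44 times that of control in acute and 1.40 times in adapted cells.

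Promoter sequences are given for 6 of these genes to show which motifs known from cell cycle promoters they hold. RefSeq promoter entries (GRCh38.p14) were matched by symbol for all but AURKA, with 17 entries for 9 genes. The 250 bases before each annotated start were searched on both strands for CCAAT, the box bound by NF-Y, and for TTTGAA or TTTAAA, the core of the cell cycle homology region to which the DREAM complex and its MuvB core bind. In the entries of these genes 0 pairs of matches overlapped. CCAAT was found in an entry of all 9 genes, against 32.0% of 35116 promoters, and at least 2 copies were found in an entry of 5 genes, against 9.5% of promoters. TTTGAA or TTTAAA was found for 5 genes, namely CCNB1, CCNB2, CDC25C, CDK1 and PLK1, against 21.9% of promoters, and these 5 also had a CCAAT in the same entry, against 7.6%. A gene can have several entries, so these counts by gene are not on a par with the shares of single promoters. Counted by entry, 13 of the 17 held CCAAT, 6 held TTTGAA or TTTAAA, and 6 held both. In the base count used here, the base before the start is -1 and a motif is placed by its leftmost base on the gene's strand. TTTGAA began at -29 in CCNB2 and PLK1, at -30 in CDC25C and at -69 and -13 in CDK1, and TTTAAA began at -30 in CCNB1, at -193 in CCNB2 and at -148 and -88 in PLK1. A further CDK1 entry, which starts upstream, held CCAAT at -150, TTTGAA at -161 and TTTAAA at -131. NEK2 had 2 CCAAT boxes and neither core. A match describes letters only and was not tested for binding. The 150 bases before the start are shown for the 5 genes with both motifs and for NEK2, the gene with the largest difference, 5′ to 3′ on the gene's strand, with motifs on either strand in capitals (ATTGG is CCAAT on the other strand). CCNB1 is chr5:69167000-69167149 (plus), CCNB2 is chr15:59104996-59105145 (plus), PLK1 is chr16:23678739-23678888 (plus), CDC25C is chr5:138331805-138331954 (minus, the only one of its entries with both motifs), CDK1 is chr10:60778328-60778477 (plus, the entry with more matches of the 2 that held both motifs) and NEK2 is chr1:211675622-211675771 (minus).
CCNB1: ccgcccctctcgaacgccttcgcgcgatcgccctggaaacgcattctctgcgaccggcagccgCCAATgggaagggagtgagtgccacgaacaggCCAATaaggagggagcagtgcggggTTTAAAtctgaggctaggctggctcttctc
CCNB2: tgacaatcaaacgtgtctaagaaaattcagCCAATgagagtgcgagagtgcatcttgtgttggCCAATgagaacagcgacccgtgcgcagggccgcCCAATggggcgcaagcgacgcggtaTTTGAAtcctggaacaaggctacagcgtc
PLK1: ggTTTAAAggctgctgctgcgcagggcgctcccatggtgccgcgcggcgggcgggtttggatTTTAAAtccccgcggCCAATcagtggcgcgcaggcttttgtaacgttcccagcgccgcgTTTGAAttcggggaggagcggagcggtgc
CDC25C: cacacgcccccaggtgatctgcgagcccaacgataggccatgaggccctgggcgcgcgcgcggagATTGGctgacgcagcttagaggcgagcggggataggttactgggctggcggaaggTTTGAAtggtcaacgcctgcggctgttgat
CDK1: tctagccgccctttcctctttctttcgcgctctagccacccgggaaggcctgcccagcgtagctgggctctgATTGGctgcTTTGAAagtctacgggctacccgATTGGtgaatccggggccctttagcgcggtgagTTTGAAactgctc
NEK2: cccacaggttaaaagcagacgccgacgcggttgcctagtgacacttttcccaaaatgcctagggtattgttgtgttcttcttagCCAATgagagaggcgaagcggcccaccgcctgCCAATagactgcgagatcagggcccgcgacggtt

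The comparison of acute with control cells describes these mRNAs after 2 days in dox. The means of all 10 genes were higher in acute cells, against 66.4% of the genes tested, although that of AURKB was not with median-of-ratios scaling of the libraries (-0.016). For 9 of the 10, all but AURKB, the 3 acute libraries were above the 3 control libraries, against 9.83% of the genes tested. At an unadjusted p under 0.05, 6 genes were higher (AURKA, CCNA2, CCNB1, CCNB2, CDK1 and NEK2), against 7.52% of all. At the set threshold the count was 0 of 10, against 0.049% of all genes, which were 5 genes including CCNE1. The smallest adjusted p was that of NEK2, with a difference of 0.51 ± 0.10 (interval 0.30 to 0.72, adjusted p = 0.0894, unadjusted p = 0.000105). The median difference of the 10 was 0.28, beside 0.06 for all genes tested.

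In proliferative crisis the same genes were near their control level. The mean was higher than in control for 9 of 10 genes, against 69.9% of the genes tested, but the median difference was 0.05, beside 0.08 for all genes. The groups were separate and higher in crisis for 4 genes (CCNB1, CCNB2, CDC25C and NEK2), against 13% of all. No gene had an unadjusted p under 0.05, against 9.32% of all genes on the higher side, and 0 of 10 passed the threshold, against 0.0392%. The largest difference was that of NEK2, 0.21 ± 0.10 (adjusted p = 0.448). Scaling libraries by median of ratios reversed the direction of AURKA, CCNA2, CDC25B, CDC25C, CDK1 and PLK1 in this comparison. Against acute cells, the means of all 10 genes were lower in crisis, whereas 45% of all genes were. The crisis libraries were all below the acute libraries for AURKA, CCNB2, CDC25B and NEK2, against 4.09% of all genes, and 4 genes (AURKA, CCNA2, CDK1 and NEK2) had an unadjusted p under 0.05 with a lower mean, against 2.15%. CDK1 differed most, by -0.46 ± 0.15 (adjusted p = 0.673), and none of the 10 passed the threshold, against 0.00981% of genes lower.

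**Figure D2:**
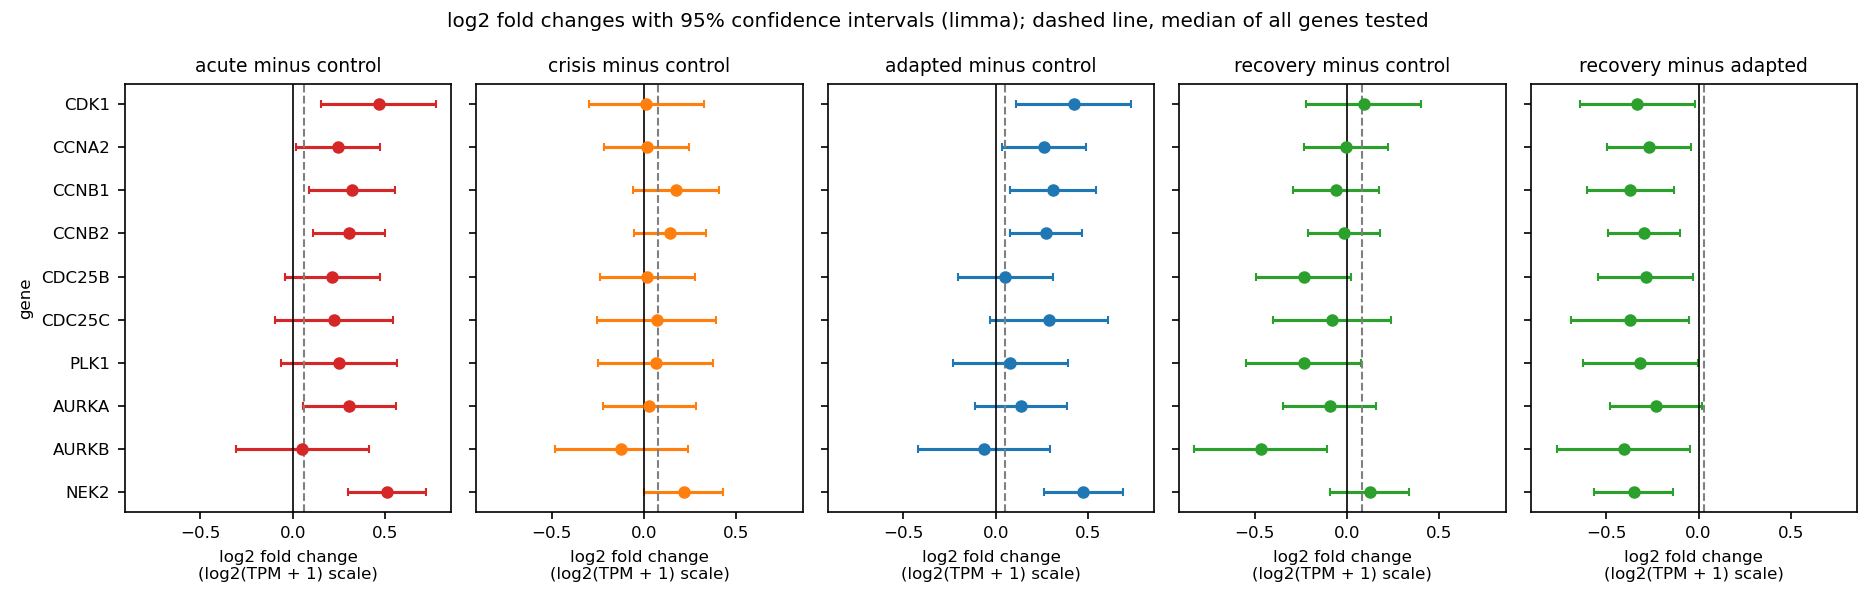
Fitted log2 fold changes of the 10 genes on the log2(TPM + 1) scale with 95% confidence intervals, for acute, crisis, adapted and recovery minus control and for recovery minus adapted. The dashed line is the median of the 10196 genes tested, and NEK2 lies farthest to the right in acute (0.51) and adapted cells (0.47).

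In adapted cells the libraries for the cyclins, CDC25C, CDK1 and NEK2 were again above control, while those for the Aurora kinases, PLK1 and CDC25B were not separated from it in TPM as deposited. The groups did not overlap for 6 genes (CCNA2, CCNB1, CCNB2, CDC25C, CDK1 and NEK2), against 13.5% of the genes tested, and 5 of these had an unadjusted p under 0.05, against 11.4% of all genes on the higher side. The mean was higher for 9 of 10, all but AURKB, against 58.7% of all. None passed the threshold, against 0.049%. NEK2, with a difference of 0.47 ± 0.10, was the only one of the 10 with an adjusted p under 0.05 in any comparison (adjusted p = 0.0478, interval 0.26 to 0.69), a level reached by 0.216% of all genes on the higher side. When each of the 6 libraries was left out in turn, its adjusted p was between 0.0304 and 0.195 and stayed under 0.05 only without control replicate 3. Across the other settings tried it was between 0.0385 and 0.109. After the correction for GC content described below, NEK2 alone of the 10 had an unadjusted p under 0.05 (0.33 ± 0.08, adjusted p = 0.0773). No share of all genes is given for that fit. In it CDC25B (0.20) and PLK1 (0.19) differed from control by more than CCNA2 (0.12), CCNB1 (0.17) and CCNB2 (0.18). The median was 0.27, beside 0.05 for all genes. Adapted replicate 3, the culture of 51 days, was the lowest adapted library for all 10 genes, by a small margin for CDC25C. Without it the means of all 10 genes were higher than in control and the median difference was 0.32, beside 0.07 for all genes.

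Adapted cells were close to acute cells in most of these mRNAs, and above cells in crisis on average. Relative to acute cells, the mean was lower for 8 of 10 genes, against 56.7% of all, and the adapted libraries were all below the acute libraries for AURKA and PLK1, against 8.51%. The 2 largest differences were those of AURKA (-0.17, interval -0.42 to 0.08) and PLK1 (-0.17, interval -0.48 to 0.14), and no gene had an unadjusted p under 0.05 on the lower side, against 4.89% of all. For CDK1 the difference was -0.05, with an interval from -0.36 to 0.27. Relative to crisis, the means of all 10 were higher in adapted cells, against 41% of all genes. For CCNA2, CDK1 and NEK2 the unadjusted p was under 0.05, against 1.79% of all, and for CDC25C all adapted libraries were above all crisis libraries, against 3%. The difference of CDK1 was 0.41 ± 0.15 (adjusted p = 0.436). In both comparisons 0 of 10 genes passed the threshold, a level that 0.0196% of genes reached on the lower side against acute cells and 0% in either direction against crisis.

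After dox withdrawal the means of these mRNAs were lower than in adapted cells and, apart from AURKB, the libraries overlapped those of cells that had never been induced. For CCNB2, CDC25C and NEK2 that overlap came from recovery replicate 3 alone. Relative to adapted cells, the means of all 10 genes were lower in recovery, against 40.6% of the genes tested, and the unadjusted p was under 0.05 for 9, all but AURKA, against 2.06% of all. The groups were separate for CCNB1, CCNB2, CDC25C, CDK1 and NEK2, against 3.33%. With all 3 libraries the differences were largest for AURKB (-0.41 ± 0.17, adjusted p = 0.629), CCNB1 (-0.37 ± 0.11, adjusted p = 0.41) and CDC25C (-0.37 ± 0.15, adjusted p = 0.602), and the smallest adjusted p was 0.362, for NEK2. None of the 10 passed the threshold, against 0.0294% of all genes, CCNE1 among them. The median was -0.32, beside 0.03 for all genes. Without recovery replicate 3 it was -0.18, beside 0.01 for all genes. The means of all 10 genes were still lower than in adapted cells, against 45.2% of all genes. The unadjusted p was under 0.05 for 3 (CCNB1, CCNB2 and NEK2), against 1.23% of all genes in that fit. The groups were then still separate for 5 genes (CCNB1, CCNB2, CDC25C, CDK1 and NEK2), against 6.97%. The order of sizes changed without that library. NEK2 (-0.32 ± 0.11) and CDK1 (-0.25 ± 0.16) then differed most, followed by CCNB1 (-0.22 ± 0.09), while AURKB was at -0.18 ± 0.15 and CDC25C at -0.15 ± 0.12, each with an adjusted p of 1.00.

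Relative to control, the mean in recovery was lower for 8 of 10 genes, against 37.4% of all genes, and the median difference was -0.07, beside 0.08 for all genes. AURKB was the only gene with separate groups and with an unadjusted p under 0.05 (-0.47 ± 0.17, interval -0.83 to -0.11, adjusted p = 0.103), against 10.1% and 8.88% of all genes on the lower side, and 0 of 10 passed the threshold, against 0.00981%. These values rest on recovery replicate 3. Without it the mean was lower for 3 genes only (AURKB, CDC25B and PLK1), against 38% of all genes. The median was then 0.09, beside 0.06 for all genes, and the AURKB difference was -0.24 ± 0.15 (adjusted p = 0.385). The 2 remaining recovery libraries were above all control libraries for CCNB2, CDC25C and NEK2, against 23.9% of all genes, and below all of them for AURKB, against 14.3%. None of the 10 had an unadjusted p under 0.05 without replicate 3, against 6.25% of all genes on the lower side. For CCNA2 and CCNB2 the differences with all 3 libraries were -0.01 and -0.02, with intervals from -0.24 to 0.22 and from -0.21 to 0.18.

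**Figure D3:**
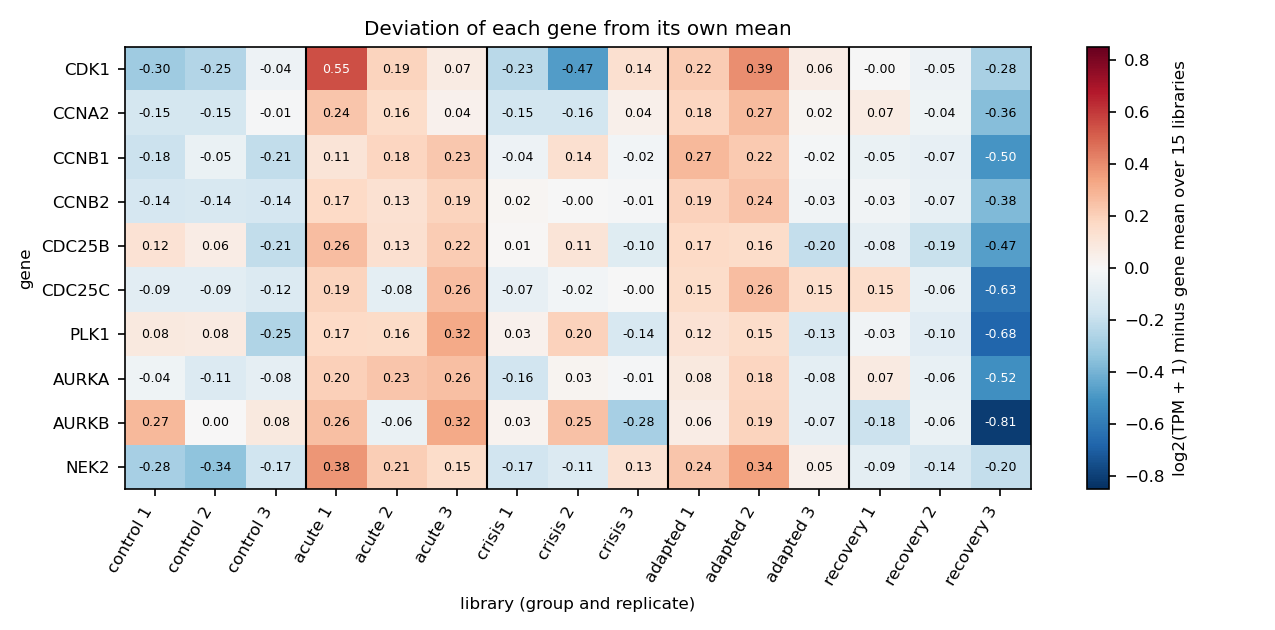
Deviation of each gene in each library from its mean over the 15 libraries, in log2(TPM + 1). Columns are libraries in the order of the experiment, red is above and blue below the gene's mean. Acute replicates 1 and 3 and adapted replicates 1 and 2 are above the mean for all 10 genes, and recovery replicates 2 and 3 are below it for all 10, by -0.48 on average in replicate 3.

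The spread within groups was not equal. The median coefficient of variation of the 10 genes was 16.04% among recovery libraries and 10.2% among adapted libraries, followed by 7.77% for crisis, 6.75% for acute and 6.08% for control. Over all genes tested it lay between 8.39% and 10.01% in each group. CDC25C (28.3%), AURKB (26.1%) and PLK1 (23.0%) varied most in recovery, whereas NEK2 varied by 4.18% there. Between recovery replicates 1 and 2 alone the median of the 10 was 4.44%, beside 5.09% for all genes tested. CDK1 was the most variable gene in crisis (21.7%).

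The genes also differed in base composition, and so did the libraries. The GC content of the longest transcript was 37.0% for CDK1 and 41.8% to 44.3% for NEK2, CCNA2, CCNB1 and CCNB2, against 55.6% for AURKB, 57.1% for PLK1 and 59.1% for CDC25B. The Spearman correlation between a gene's GC content and its deviation in a library, taken over 10185 genes, was between -0.17 and -0.55 in the adapted and between -0.27 and -0.47 in the recovery libraries, and 0.69, 0.58 and -0.13 in control libraries. The 3 genes richest in GC had the smallest adapted differences, namely -0.06 for AURKB, 0.08 for PLK1 and 0.05 for CDC25B. After a correction for GC content in each library these were 0.03, 0.19 and 0.20, those of CDK1 and NEK2 were 0.22 and 0.33, and the median of the 10 was 0.19. In acute cells the corrected median was 0.22, and the means of all 10 genes were above control in both groups. The corrected recovery means of all 10 were below control, with a median of -0.17, but without recovery replicate 3 the corrected means were below control for 7 and the median was -0.01. The corrected crisis median was -0.00. The number of genes with an unadjusted p under 0.05 and a higher mean was 4 in acute and 1 in adapted cells after correction, against 6 and 5 before it. No share over all genes is given for the corrected fit. The corrected counts and directions therefore have no background beside them. NEK2 had the smallest adjusted p of the 10 after correction, both in acute (0.128) and in adapted cells (0.0773).

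**Figure D4:**
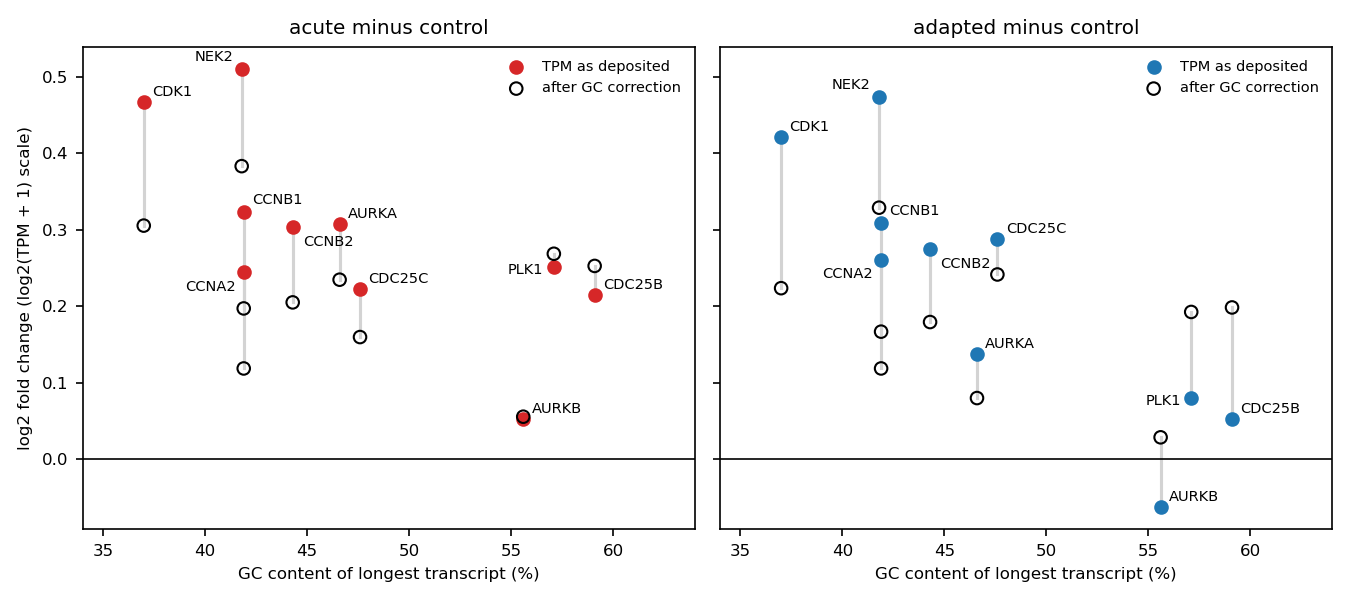
log2 fold change of each gene against the GC content of its longest transcript, for acute and adapted minus control. Filled points are from TPM as deposited and open points after correction for GC content in each library, joined by a line for each gene. The adapted difference of CDC25B was 0.05 as deposited and 0.20 after correction.

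Other genes of the same pathway were followed as lists, of which only CDKN1A passed the threshold in a comparison described here. The values of all lists are from TPM as deposited, and none is given after the GC correction. Among the inhibitors of CDK1 and checkpoint genes, 6 of 8 could be tested. CDKN1A, which encodes the CDK inhibitor p21, rose to 147 ± 14.1 TPM in acute cells, against 78.0 ± 6.70 TPM in control cells (SD, n = 3 each), a difference of 0.91 ± 0.10 (adjusted p = 2.09e-04), and it was lower in adapted than in acute cells by -0.79 ± 0.10 (adjusted p = 0.00258). Its mean was 96.5 ± 4.64 TPM in crisis, where it differed from control by 0.31 ± 0.10 (adjusted p = 0.286). GADD45A, a stress-induced inhibitor of CDK1, differed from control by 0.32 ± 0.10 in acute cells (adjusted p = 0.328), the kinase gene WEE1 by 0.28 ± 0.11 in crisis (adjusted p = 0.371), and PKMYT1 by -0.43 ± 0.13 in recovery (adjusted p = 0.0749; -0.32 ± 0.13 and adjusted p = 0.271 without replicate 3). The list's median lay between 0.13 (adapted) and 0.25 (acute), and in recovery it was 0.16, or 0.20 without replicate 3.

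The cofactors of PLK1 and the Aurora kinases had median differences from control of 0.20 for acute, 0.04 for crisis, 0.13 for adapted and -0.08 for recovery cells, and 0 of the 9 tested passed the threshold. HMMR, a spindle protein, was the member with the smallest p in acute cells (0.47 ± 0.15, adjusted p = 0.389) and also among adapted cells (0.36 ± 0.15, adjusted p = 0.199). TPX2, the activator of AURKA, differed by 0.24 ± 0.10 in acute cells (adjusted p = 0.529). All 9 were lower in recovery than in adapted cells, against 40.6% of all genes, with a median of -0.28 and 6 at an unadjusted p under 0.05, against 2.06% of all. Without recovery replicate 3 all 9 were still lower, against 45.2% of all genes, with a median of -0.19. In that fit 0 had an unadjusted p under 0.05, against 1.23% of all. In recovery relative to control the smallest p was that of CDCA8, a partner of AURKB (-0.30 ± 0.13, adjusted p = 0.15), and without replicate 3 it was at -0.10 and the list's median at 0.01.

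The other mitotic kinases also tended to have means above control. Of 11 tested, 11 had a higher mean in acute cells, against 66.4% of all genes, and 10 in adapted cells, against 58.7%. In each of these groups 5 had an unadjusted p under 0.05, against 7.52% of all genes in acute and 11.4% in adapted cells, and 0 passed the threshold. The median was 0.24 in both. In acute cells TTK, the spindle checkpoint kinase, differed by 0.58 ± 0.17 (adjusted p = 0.328) and BUB1B by 0.44 ± 0.12 (adjusted p = 0.271), and in adapted cells VRK1, a nuclear kinase, differed by 0.44 ± 0.14 (adjusted p = 0.119, groups overlapping) and PLK4, the kinase of centriole duplication, by 0.47 ± 0.17 (adjusted p = 0.15). NEK9, a kinase upstream of other NEK kinases, had the smallest p in recovery (0.31 ± 0.10, adjusted p = 0.0917, and 0.27 without replicate 3). The genes of mitotic exit had a median of 0.16 in acute, 0.12 in adapted and -0.23 in recovery cells, the last being -0.09 without replicate 3. UBE2C, the ubiquitin-conjugating enzyme that works with the anaphase-promoting complex, differed by 0.47 ± 0.12 in acute cells (adjusted p = 0.26), and UBE2S by -0.67 ± 0.18 in recovery (adjusted p = 0.0622), or by -0.47 ± 0.17 without replicate 3 (adjusted p = 0.23).

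The list of FOXM1, B-MYB, MuvB subunits and NF-Y, factors known from promoters of this class, had medians between 0.06 (recovery) and 0.13 (crisis) relative to control, with 0 of 11 past the threshold. The MuvB subunits LIN54 and LIN9 had the smallest p in acute cells, at 0.30 ± 0.12 (adjusted p = 0.483) and 0.37 ± 0.15 (adjusted p = 0.495), and in adapted cells LIN9 differed by 0.50 ± 0.15 (adjusted p = 0.102). In recovery NFYB, which encodes a subunit of NF-Y, was above control in all 3 libraries, as were 1917 of the 10196 genes tested. Its difference was 0.52 ± 0.13 (adjusted p = 0.0533), whereas MYBL2, which encodes B-MYB, differed by -0.31 ± 0.12 (adjusted p = 0.128). Without recovery replicate 3 these were 0.43 ± 0.14 (adjusted p = 0.196) for NFYB and -0.21 ± 0.13 (adjusted p = 0.391) for MYBL2, and the list's median was 0.04. The list of Greatwall and the phosphatase PP2A-B55, which opposes CDK1, had medians between -0.01 (recovery, or 0.02 without replicate 3) and 0.06 (acute) relative to control, and its member ENSA differed by -0.28 ± 0.09 in adapted cells (adjusted p = 0.123). Of the remaining cyclins, CDC25A, CKS proteins and the CDK-activating kinase, CKS2 differed by 0.40 ± 0.12 in adapted cells (adjusted p = 0.107), and the list's median lay between -0.06 (recovery) and 0.24 (adapted), with 0.14 in recovery without replicate 3. In recovery CCNH, the cyclin of the CDK-activating kinase, had the list's smallest p (0.36 ± 0.12, adjusted p = 0.0853, and 0.27 without replicate 3). In contrast, genes of the G1/S transition had negative medians relative to control in TPM as deposited. These were -0.20 (acute), -0.12 (crisis), -0.19 (adapted) and -0.16 (recovery, or -0.08 without replicate 3). The part of GC content in this contrast was not tested. CDT1, which loads the replicative helicase (-0.72 ± 0.16), and MCM5, a subunit of it (-0.56 ± 0.12), each had an adjusted p of 0.0403 in recovery. Without replicate 3 they were at -0.55 ± 0.15 and -0.44 ± 0.12, each with an adjusted p of 0.177, and 0 of 12 passed the threshold in any comparison with control.

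**Figure D5:**
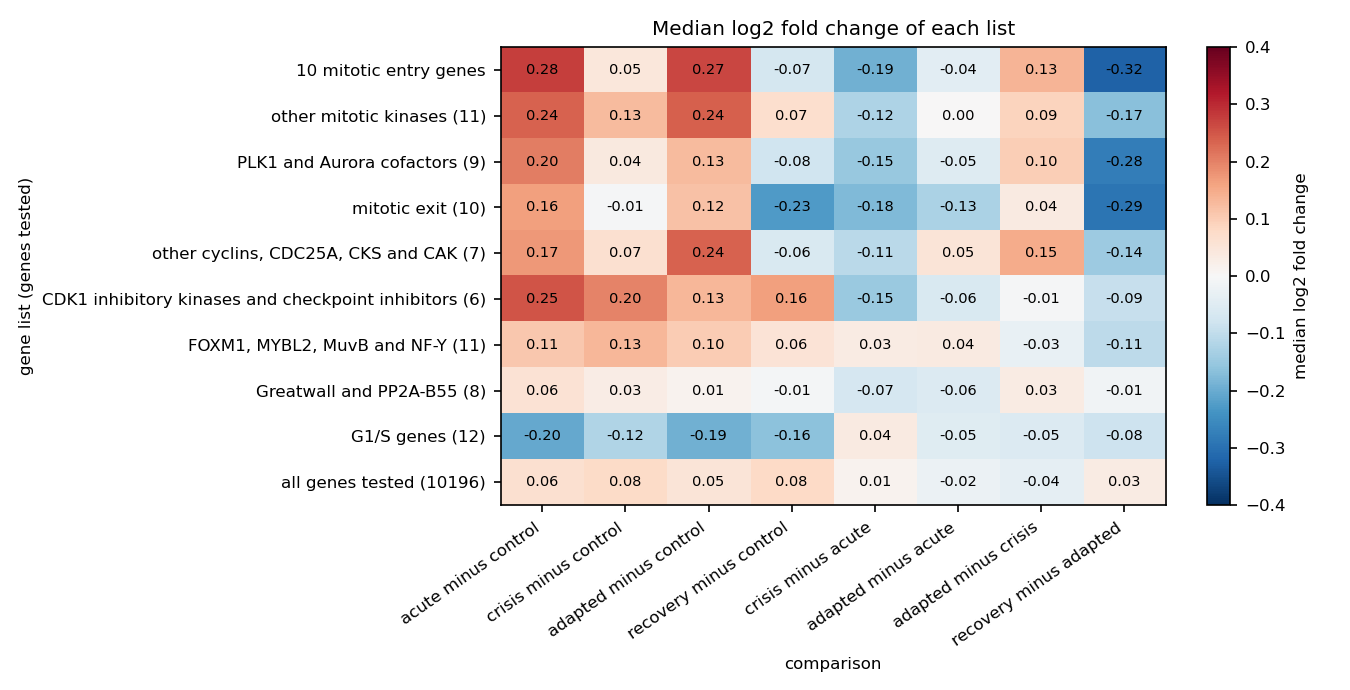
Median log2 fold change of each gene list in 8 comparisons, from TPM as deposited without GC correction, with the number of genes tested in parentheses. Red is higher and blue lower in the group named before the word minus. The 10 mitotic entry genes had medians of 0.28 in acute and 0.27 in adapted minus control and of -0.32 in recovery minus adapted, and the G1/S genes had negative medians in all 4 comparisons with control.

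The genes outside the 10 whose pattern was most like theirs were sought by Pearson correlation with the mean standardized level of the 10 over the 15 libraries. The 10 with the highest r were SPAG5 (0.96), TPX2 (0.96), GTSE1 (0.95), CKS2 (0.93), FAM83D (0.93), UBE2C (0.93), TACC3 (0.93), ARHGAP19 (0.93), RACGAP1 (0.92) and BUB3 (0.92). All 10 remained positively correlated without recovery replicate 3, with r between 0.85 and 0.93. Among the 10 described genes themselves, r between pairs ran from 0.192 to 0.95 over the 15 libraries. These are descriptions over libraries of 5 groups that share a cell clone and a normalization.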

How the data were processed

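mRNA of 15 samples in 5 groups of 3, assigned by the submitters' labels, had been sequenced from a single end. The authors used kallisto with hg38 and deposited TPM for 60603 entries. Their annotation release and strand setting were not given in the sources used here. Because TPM carries no depth, neither counting intervals nor count models were used. The deposited table also holds fold changes and p-values of the authors' own comparisons, made with DESeq2, which were not used. Columns of values with no sample numbered 0.

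After 45 pseudoautosomal copies were dropped, 60558 genes remained. Those averaging 5 TPM or more (10196) were fitted as log2(TPM + 1) with limma 3.58.1 in R 4.3.3 (5 groups, variance trend, 2-sided, Benjamini-Hochberg adjustment over all genes tested, threshold 0.01). Fold changes on this scale understate changes of low genes. With 3 cultures a group, p-values measure the spread between cultures of 1 clone. That spread was estimated once for each gene over all 5 groups, although it differed between groups as given above. It is therefore not the spread of the groups compared alone. The fit was tested on simulated data. For acute relative to control, 34 of 67 genes given a shift of 0.5 were called, and 1 of 9996 genes given none. In that run 67 further genes had a shift of 1 and 66 a shift of 2. In the data only 5 genes were called in this comparison, and NEK2, at 0.51, was not. The adjustment is stricter where fewer genes differ, so the simulated share does not give the share that would be called in the data. A gene that was not called may still differ by 0.5. For the GC correction, a loess curve (span 0.3) of each library's deviation on GC content was subtracted.

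Positions and GC content came from GENCODE release 44. Promoters came from RefSeq (GRCh38.p14). The 10 genes and the lists were chosen with earlier results of these data known. Named besides the 10 were CCNE1, in order of unadjusted p up to 3 genes of each list in a comparison with control, and the 10 genes most like the 10 described. Figures were drawn with matplotlib 3.10.9 and tables read with pandas 2.3.3. Alternatives were 2 pseudocounts (0.1 and 5), filters of 1 and 10 TPM and none, median-of-ratios scaling, GC correction, a replicate block, no variance trend, the 6 libraries compared alone, a threshold of 0.05 and each library left out. GC correction without recovery replicate 3 was added after seeing the data.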

Additional observations from a re-analysis of the deposited data

How the results depend on the processing

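None of the 10 genes passed the threshold of 0.01 under any alternative run, and at 0.05 only NEK2 in adapted relative to control did, a count of 1. Median-of-ratios scaling turned the direction of AURKB in acute (-0.016), of AURKA (-0.056), CCNA2 (-0.072), CDC25B (-0.068), CDC25C (-0.012), CDK1 (-0.074) and PLK1 (-0.022) in crisis relative to control, and of CCNB1 in adapted relative to acute cells (0.0086). GC correction, with and without a replicate block, turned AURKA (-0.059), CCNA2 (-0.094), CDC25C (-0.018) and CDK1 (-0.12) in crisis, AURKB in adapted (0.028) and CDK1 (-0.17) and NEK2 (-0.069) in recovery, each relative to control. GC correction with recovery replicate 3 left out, chosen after seeing the data, turned CDC25B (0.0062), CDC25C (0.072), CDK1 (-0.033), NEK2 (-0.0016) and PLK1 (0.064) in recovery relative to control, where 1 gene of all passed the threshold, and gave a median of the 10 of -0.19 relative to adapted cells. The cause was not tested.

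Leaving out 1 library at a time gave ranges that crossed 0 in acute relative to control for AURKB (-0.023 to 0.17). In crisis relative to control they did for AURKA (-0.0084 to 0.085), AURKB (-0.25 to 0.016), CCNA2 (-0.053 to 0.058), CDC25B (-0.085 to 0.083), CDK1 (-0.15 to 0.15) and PLK1 (-0.048 to 0.15). In adapted relative to control they did for AURKB (-0.13 to 0.014), CDC25B (-0.049 to 0.17) and PLK1 (-0.032 to 0.17). In recovery relative to control they did for AURKA (-0.22 to 0.081), CCNA2 (-0.10 to 0.12), CCNB1 (-0.14 to 0.086), CCNB2 (-0.081 to 0.091) and CDC25C (-0.25 to 0.14), the positive end being without recovery replicate 3 in each. In adapted relative to acute cells they did for CCNA2 (-0.040 to 0.084), CCNB1 (-0.071 to 0.074), CCNB2 (-0.082 to 0.055), CDC25C (-0.038 to 0.14), CDK1 (-0.15 to 0.095) and NEK2 (-0.10 to 0.045), and relative to crisis for AURKB (-0.079 to 0.19), CDC25B (-0.027 to 0.16) and PLK1 (-0.068 to 0.11). The median of the 10 ranged from -0.18 to 0.089 in recovery relative to control, from -0.41 to -0.18 in recovery relative to adapted cells, from -0.12 (without adapted replicate 2) to 0.040 (without adapted replicate 3) in adapted relative to acute cells, from 0.093 to 0.22 without the same libraries in adapted relative to crisis, and from 0.055 to 0.077 in crisis relative to control. The adjusted p of NEK2 in adapted relative to control ranged from 0.0304 to 0.195.

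The count of all genes past the threshold was small and moved with the settings. In acute relative to control it was 5, and 3 with a pseudocount of 5 or a filter of 10 TPM. In crisis it was 4, and 2 with that filter, 7 at a threshold of 0.05 and 3 to 7 without 1 library. In adapted it was 5, and 10 with no filter or with GC correction, 3 with a filter of 10 TPM, 11 with scaling, 8 with the 6 libraries alone, 55 at 0.05 and 4 to 9 without 1 library. In recovery it was 4, and 1 with a filter of 1 TPM, with scaling, with GC correction, with no variance trend or with the 6 libraries alone, 113 at 0.05 and 1 to 5 without 1 library. In crisis relative to acute it was 1, and 3 with no filter or with GC correction. In adapted it was 2 relative to acute cells, with 5 under no filter, 4 at 0.05 and 1 to 2 without 1 library, and 0 relative to crisis, with 4 under no filter and 1 at 0.05. In recovery relative to adapted cells it was 3, and 8 with no filter.

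Replicate numbers were shared between groups. Of 30 same-numbered pairs 11 had a correlation over 0.1, with a range from -0.437 to 0.34, and in 26 of 60 cases a library correlated best with its own number in another group, so the numbers were not taken as pairs. The 6 pairs of replicate 3 outside acute cells were all between 0.131 and 0.34. A replicate block turned no direction among the 10, changed none of their calls at 0.01 (adjusted p of NEK2 in adapted cells 0.0656) and moved no count of calls by more than 1.5 times. With GC correction the block gave 10 genes in adapted and 1 in recovery relative to control. TPM carries no depth, so no limit from depth is given.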
